A study of Homo sapiens with 9 samples.

Results

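The 42 genes described here encode the machinery of the G1/S transition and of DNA replication: the proteins that license origins, start and run the replication fork, supply nucleotides and histones, and control entry into S phase. They were chosen by name, and each was represented by its brightest probe set among those annotated to it alone, 42 genes of 19775 measured. All 42 listed symbols were found. Their expression was measured in HT29 cells, an established epithelial line from a colon cancer, on Affymetrix HG-U133 Plus 2.0 arrays, from total RNA and with biotin as the label. Control cells received no treatment. CA cells were exposed for 24 h to caffeic acid, which is a coffee polyphenol, at 1.68 µg/mL. ICC cells were exposed for 24 h to instant caffeinated coffee at 7 µg/mL. Each group had 3 arrays, which the labels number 1, 2 and 3, and the study asked how coffee or caffeic acid affects gene expression in these cells, at concentrations its design text describes as not cytotoxic. All 3 groups are 1 tumour line, and the labels do not say whether the arrays of a group came from separate cultures or what the number marks, so the p-values speak only of the spread among the arrays at hand.

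As background, cells license replication origins in G1, when the origin recognition complex, CDC6 and CDT1 load the MCM2 to MCM7 ring on DNA. At the start of S phase the ring is activated by MCM10, CDC45 and the GINS complex, and the polymerases then copy DNA with the sliding clamp PCNA and its loader, replication factor C. Many of these genes are transcribed in late G1 under E2F transcription factors, whose typical binding site in a promoter reads TTTGGCGC or TTTCGCGC, and proliferating cancer cells express them together.

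Array medians lay between 43.8 and 46.6 in deposited linear intensity, and all values below are log2 of that intensity. The mean log2 intensity of every one of the 42 genes lay above 6.46, the median over all genes, and 10 of the 42 showed the same value on at least 2 arrays. Of 11 colon epithelial markers 9 lay above that median, among them EPCAM, KRT8, KRT20 and CDH1, while CDX2 and CEACAM5 lay below it. The mean log2 intensity of the 8 fibroblast markers was 5.09 to 5.29 over the 9 arrays and that of the 6 leukocyte markers 5.38 to 5.66. Of the 8 fibroblast markers 1 lay above that median (COL1A1 at 7.24), and of the 6 leukocyte markers 2 (CD14 at 7.14 and LAPTM5 at 7.18), while LUM and PTPRC were lowest in their lists at 3.70 and 3.65. The arrays of equal number resembled each other across the groups. Over all genes the deviations from the group means correlated at 0.327 to 0.518 in 9 of 9 pairs of equal number from different groups, and at -0.436 to 0.0839 in the 18 pairs of unequal number.

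**Figure D1:**
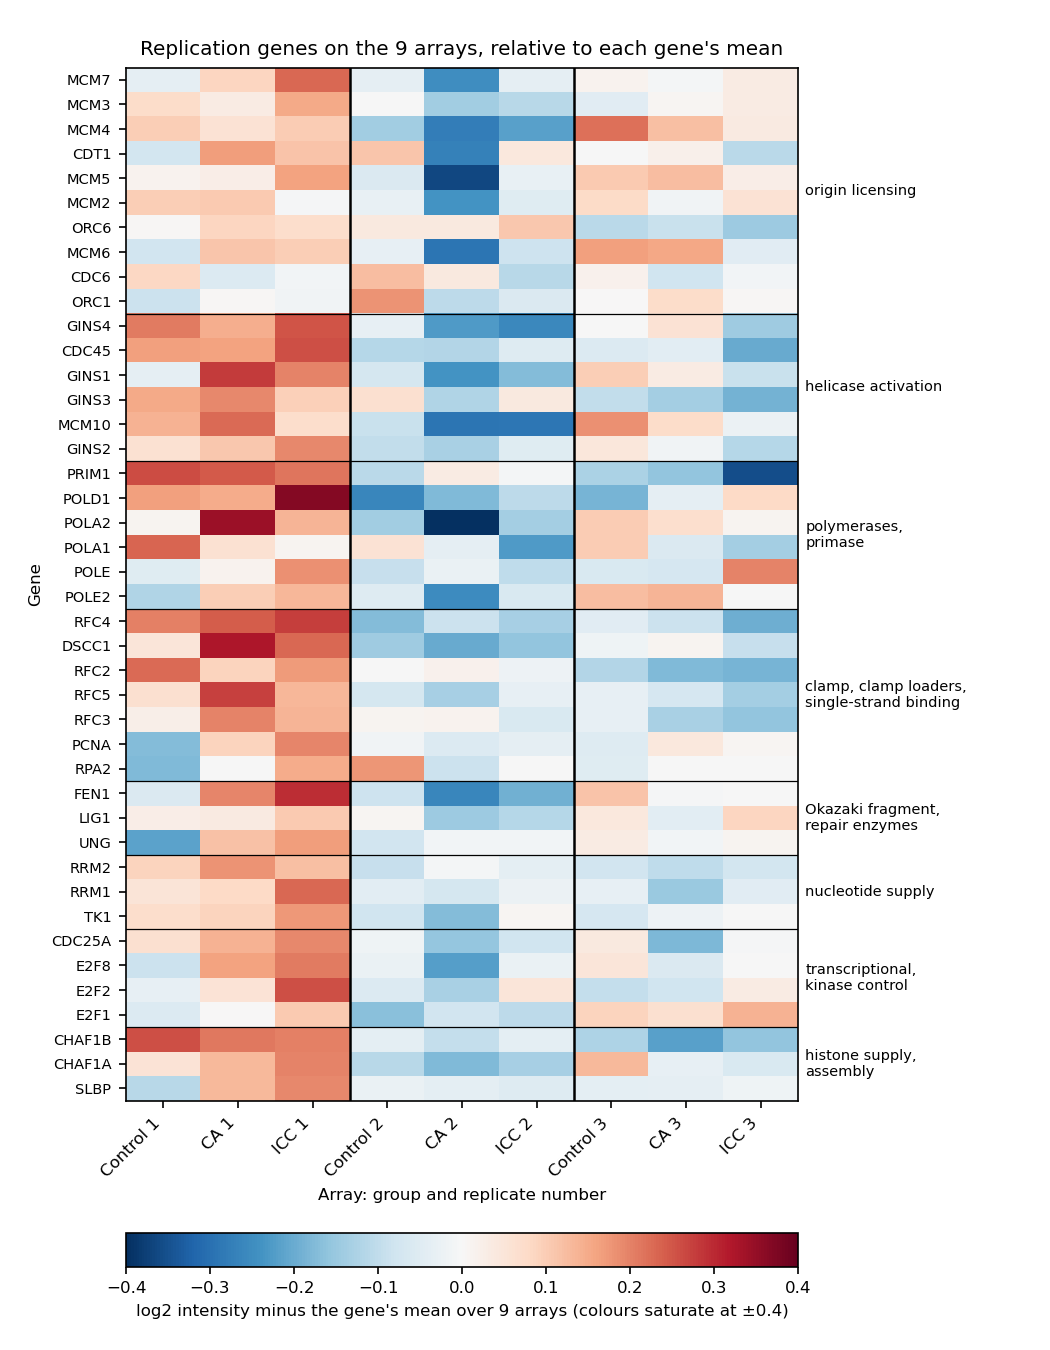
Log2 intensity of the 42 G1/S and DNA replication genes on each of the 9 arrays, drawn as the deviation from each gene's own mean, with genes in rows by role and arrays in columns by replicate number. The columns of number 1 are mostly above the gene means, and the median deviation of the 42 genes is 0.050 to 0.17 there, against -0.13 to -0.046 on number 2 and -0.025 to -0.0031 on number 3.

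Promoter sequence from RefSeq (GRCh38.p14, 250 bases before to 50 after each start) was listed for 36 of the 42 genes and not for MCM4, MCM5, GINS4, RPA2, DSCC1 and E2F8. The joined E2F-type motif TTTNGCGC, searched on both strands, was present in 16 of the 45 promoters of these 36 genes (35.6%), against 1.79% of all 35116 listed promoters of the same length. It covers TTTGGCGC, present in 9 promoters (0.652% of all), and TTTCGCGC, present in 5 (0.515% of all), and it shares no full match with CCAAT. The CCAAT box was present in 28 of 45 (62.2%, against 34.6% of all). The shorter E2F core GGCGC, which TTTGGCGC contains, was in 41 of 45 (91.1%, against 48.6% of all). TTTGAA, a letter string found in promoters of many G2 and mitosis genes, was in 2 of 45 (15.2% of all). In promoters of the G2 and mitosis genes listed below, CCAAT was in 74.3%, GGCGC in 85.7% and TTTNGCGC in 8.57%. In those of the other G1/S and replication genes listed, the shares were 43%, 81% and 13.9%. Of the 8 licensing genes listed 7 held TTTNGCGC, and of the 5 listed helicase-activation genes 1 did. A match is a string of letters and not a measured binding site. The 100-base windows below are written from 5′ to 3′ on the strand of the gene and end before its start, with the motif in capitals. The first 5 hold TTTNGCGC and belong to members described below for their values under coffee or by replicate number. In the MCM6 window 2 matches on opposite strands overlap, and the POLA1 match is on the opposite strand.
MCM6, chr2:135876542-135876641, minus strand: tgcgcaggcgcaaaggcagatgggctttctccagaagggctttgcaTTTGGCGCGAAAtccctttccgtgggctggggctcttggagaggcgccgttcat
MCM7, chr7:100101398-100101497, minus strand: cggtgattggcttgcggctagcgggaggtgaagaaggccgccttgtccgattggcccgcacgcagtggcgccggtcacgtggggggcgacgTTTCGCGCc
POLA1, chrX:24693735-24693834, plus strand: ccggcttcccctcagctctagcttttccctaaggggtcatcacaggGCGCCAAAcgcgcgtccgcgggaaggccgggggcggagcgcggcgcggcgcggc
POLA2, chr11:65261862-65261961, plus strand: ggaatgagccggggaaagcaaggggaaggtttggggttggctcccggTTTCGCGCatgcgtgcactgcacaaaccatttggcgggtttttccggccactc
E2F1, chr20:33686386-33686485, minus strand: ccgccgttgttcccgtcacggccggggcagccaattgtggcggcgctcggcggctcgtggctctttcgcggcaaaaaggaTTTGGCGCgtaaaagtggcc
The other 4 hold no TTTNGCGC and belong to genes that passed the test between replicate numbers. In PRIM1 and CDC45 the capitals mark CCAAT or its reverse complement, and in RFC4 and CHAF1B they mark the GGCGC core on either strand.
PRIM1, chr12:56752324-56752423, minus strand: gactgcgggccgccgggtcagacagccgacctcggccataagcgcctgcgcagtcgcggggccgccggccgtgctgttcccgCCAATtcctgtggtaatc
CDC45, chr22:19479761-19479860, plus strand: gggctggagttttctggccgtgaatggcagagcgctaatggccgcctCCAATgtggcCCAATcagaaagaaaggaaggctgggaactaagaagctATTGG
RFC4, chr3:186806494-186806593, minus strand: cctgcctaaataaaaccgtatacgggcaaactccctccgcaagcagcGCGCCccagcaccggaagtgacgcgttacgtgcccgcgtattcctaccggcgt
CHAF1B, chr21:36385292-36385391, plus strand: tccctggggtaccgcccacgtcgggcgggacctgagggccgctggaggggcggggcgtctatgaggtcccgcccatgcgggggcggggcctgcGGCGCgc

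None of the 42 genes passed the test for coffee or caffeic acid. The threshold was an adjusted p (Benjamini-Hochberg over 19775 genes) under 0.05 in limma's moderated test, and 0 of 42 passed for ICC against Control, 0 for CA against Control and 0 for ICC against CA. The share of all genes that passed was 0% in each of the 3 comparisons, so these counts do not set the replication genes apart. At an unadjusted p under 0.05, 0 of 42 were higher and 1 lower with ICC, against 5.83% higher and 1.9% lower of all genes. For CA 0 were higher and 0 lower (2.55% and 1.91% of all genes), and for ICC against CA likewise 0 and 0 (2.19% and 0.496% of all genes). With the replicate number as a block the count of these genes past the adjusted threshold was again 0 in each comparison, against 0.0152% of all genes lower for caffeic acid against Control and 0.00506% higher between the treatments. The unadjusted counts with the block were 2 higher and 1 lower for ICC against Control (8.41% and 3.99% of all genes), 0 and 0 for CA against Control (4.04% and 4.5%), and 1 and 0 for ICC against CA (4.63% and 1.32%). The 2 higher were POLD1 and E2F2, with unadjusted p of 0.0110 and 0.0283 and adjusted p of 0.323 and 0.364 in limma's test with the block. POLD1 was at +0.21 ± 0.067 (SE with the block), and at +0.20, +0.15 and +0.27 within numbers 1, 2 and 3. The 1 lower was POLA1 (unadjusted p = 0.00314, adjusted p = 0.317), and the 1 between the treatments was E2F2.

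On the probe sets chosen, the differences themselves were small. The median log2 difference of the 42 genes was +0.0075 for ICC against Control, beside +0.028 over all genes, and 25 of the 42 were above 0. With each array centred on its own median it was -0.018, with 18 above 0. For CA against Control the median was -0.014, beside +0.0027 over all genes, with 18 above 0. For ICC against CA it was +0.024, equal to the +0.024 over all genes, with 28 above 0, and -0.0056 with centred arrays. Leaving out 1 array turned the sign of this median in each comparison: to -0.055 without ICC array 1 or -0.012 without Control array 2 for ICC against Control, to +0.052 without CA array 2 or +0.010 without Control array 1 for CA against Control, and to -0.046 without ICC array 1 or -0.037 without CA array 2 for ICC against CA. The 95% intervals of single genes reached at most from -0.47 to +0.53 for ICC against Control, a 1.44-fold difference at the widest bound. They reached from -0.39 to +0.39 for CA against Control (1.31-fold) and from -0.44 to +0.45 for ICC against CA (1.37-fold). These 3 comparisons share arrays and are not independent of each other. Of 37 further probe sets, of 23 of the genes, 21 had the same sign as the chosen one for ICC against Control. The count was 27 for CA against Control and 24 for ICC against CA. Farthest from 0 for ICC against Control was a further RFC5 probe set with a mean of 9.40. It gave +0.40 there and +0.23 for CA against Control, where the chosen RFC5 probe set gave -0.00016 and +0.036.

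**Figure D2:**
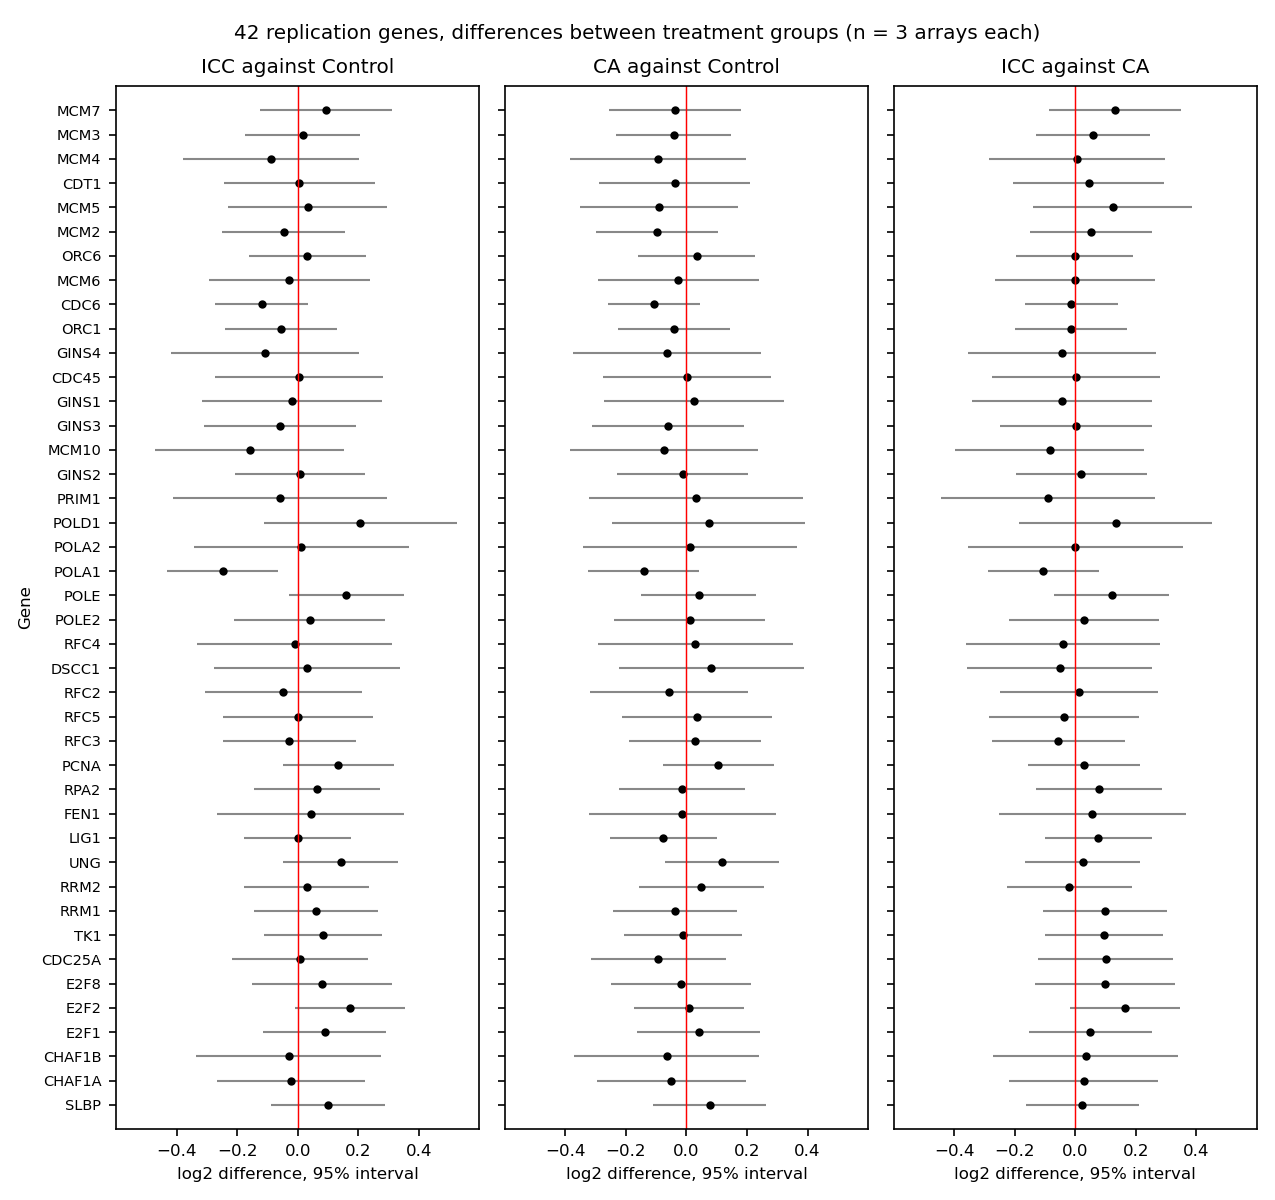
Difference of each of the 42 genes in log2 intensity between the groups, 1 panel per comparison, with 95% intervals from limma's fit over the 9 arrays. The points run from -0.25 to +0.21. In this fit, which has no replicate block, the interval of POLA1 for ICC against Control, -0.43 to -0.064, is the only one that leaves out 0.

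Within the replicate numbers the treated arrays did not lean the same way. Between ICC and Control the median difference of the 42 genes was +0.13 on number 1, with 34 of 42 above 0, but -0.016 on number 2 (15 above 0) and -0.060 on number 3 (13 above 0). Between CA and Control it was +0.077 on number 1 (32 above 0), -0.088 on number 2 (9 above 0) and -0.033 on number 3 (15 above 0). The medians over all genes within these pairs were between 0 and +0.054. Only number 1 gave a positive median, in ICC and in CA. Whether the treatment difference depended on the number was not tested, because each group has 1 array of each number and no array is left to measure the spread.

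Genes of the replication machinery differed by replicate number. On the 3 arrays of number 1, 8 of the 42 were higher than on the 6 arrays of numbers 2 and 3 at an adjusted p under 0.05 in limma's fit with the group as a further term: CHAF1B, RFC4, POLD1, PRIM1, CDC45, DSCC1, GINS4 and RFC2. None of the 42 was lower. Those 8 are 19% of the 42, against 4.03% of all 19775 genes higher and 1.05% lower, and 6.36% higher among the genes above the median level. At an unadjusted p under 0.05, 23 of 42 were higher (14.2% of all genes) and 0 lower (5.44% of all genes), and for 16 of 42 all 3 arrays of number 1 lay above all 6 others (7.21% of all genes). The median difference was +0.16, which is 1.12-fold, beside +0.027 over all genes and +0.047 over genes above the median level. All but ORC1 at -0.049 and RPA2 at -0.016 were above 0, and with quantile normalization applied again 38 of 42 were. Because total RNA of a culture was measured, a larger share of cells in S phase and more of these RNAs per cell cannot be told apart.

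The count of 8 depended on each number 1 array. It was 1 without ICC array 1, 2 without CA array 1 and 5 without Control array 1. Without an array of number 2 or 3 it was 5 without CA array 2 or Control array 3, 4 without ICC array 2 or ICC array 3, and 6 without Control array 2 or CA array 3. The median difference lay between +0.13 and +0.22 over these 9 fits. Within the groups, the difference of number 1 from the mean of numbers 2 and 3 had a median of +0.044 in Control, with 28 of 42 genes above 0, +0.20 in CA (41 above 0) and +0.21 in ICC (41 above 0), beside all-gene medians of +0.017, +0.0067 and +0.056. In 26 of 42 genes the difference was above 0 in all 3 groups, and in 0 it was below 0 in all 3. Of 37 further probe sets, of 23 of the genes, 31 had the same sign of this difference as the probe set chosen. The log2 difference between the 3' and 5' probe sets of ACTB, a measure of RNA integrity, was 0.163 to 0.305 on number 1, 0.283 to 0.396 on number 2 and 0.292 to 0.355 on number 3, and that of GAPDH -0.039 to 0.023, -0.010 to 0.020 and 0.018 to 0.093. The part of RNA integrity in the difference by number was not tested. Mean fibroblast and leukocyte marker levels overlapped between number 1 and the rest, at 5.13 to 5.23 and 5.46 to 5.66 on number 1 against 5.09 to 5.29 and 5.38 to 5.56 on numbers 2 and 3, as means over the list in log2 intensity. The mean epithelial marker level was lowest on number 1 in every group. On numbers 1, 2 and 3 it was 10.606, 10.647 and 10.706 in Control, 10.542, 10.628 and 10.651 in CA and 10.632, 10.660 and 10.653 in ICC. Across groups, the only overlap was ICC array 1 above CA array 2. At an adjusted p under 0.05 in limma's test, 1 of 11 epithelial markers was lower on number 1 (1.05% of all genes). On the same test 2 of 6 leukocyte markers were higher (4.03% of all genes). The part of these markers in the result was not tested.

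**Figure D3:**
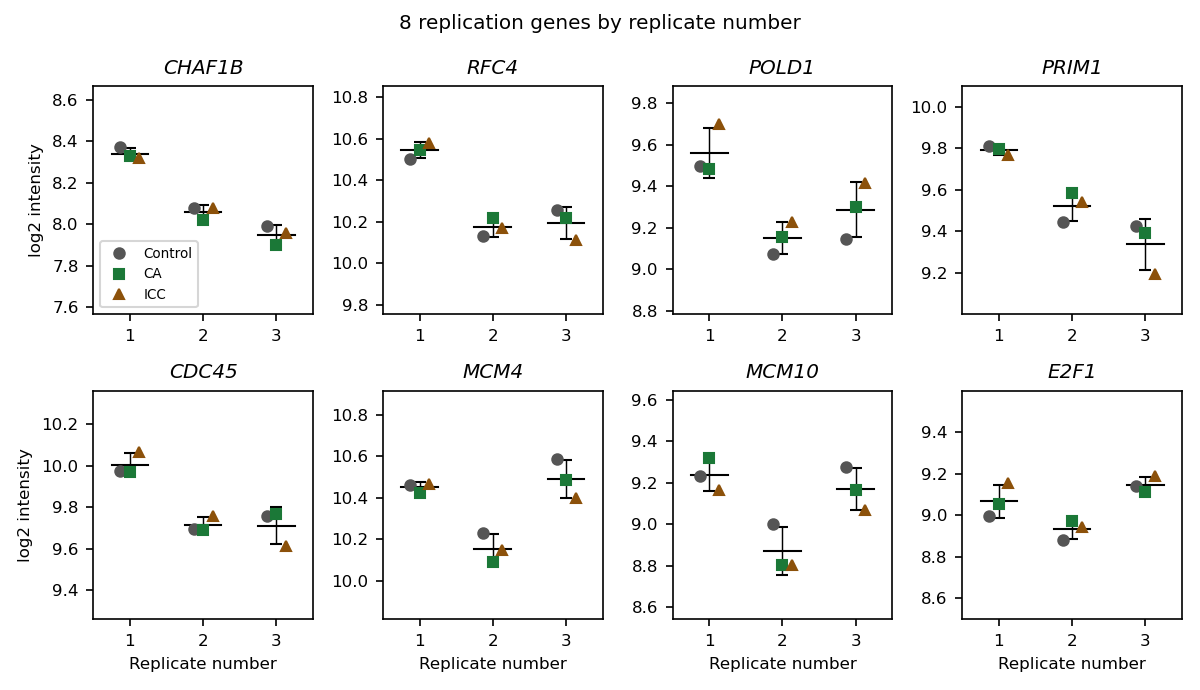
Log2 intensity on the 9 arrays of 8 replication genes, with the replicate number on the horizontal axis, a symbol for each group, and a line and bars for the mean and SD of the 3 arrays of a number. CHAF1B, RFC4, POLD1, PRIM1 and CDC45 have all 3 arrays of number 1 above the other 6, and MCM4, MCM10 and E2F1 have all 3 arrays of number 2 below those of number 3.

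Between numbers 2 and 3 fewer genes passed and more were lower than higher. Of the 42 genes 1 passed, MCM4, which was lower on number 2, and 0 were higher, against 0.799% of all genes lower and 0.936% higher. At an unadjusted p under 0.05, 7 of 42 were lower (6.99% of all genes) and 3 higher (7.39% of all genes). For 11 of 42 all 3 arrays of number 2 lay below all 3 of number 3 (8.9% of all genes), and for 4 above (9.47% of all genes). The median difference of number 2 from number 3 was -0.049, beside -0.0028 over all genes, and 30 of 42 were below 0. It was -0.11 without Control array 2. In 18 of 42 genes the difference was below 0 in all 3 groups and in 6 above 0 in all 3.

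**Figure D4:**
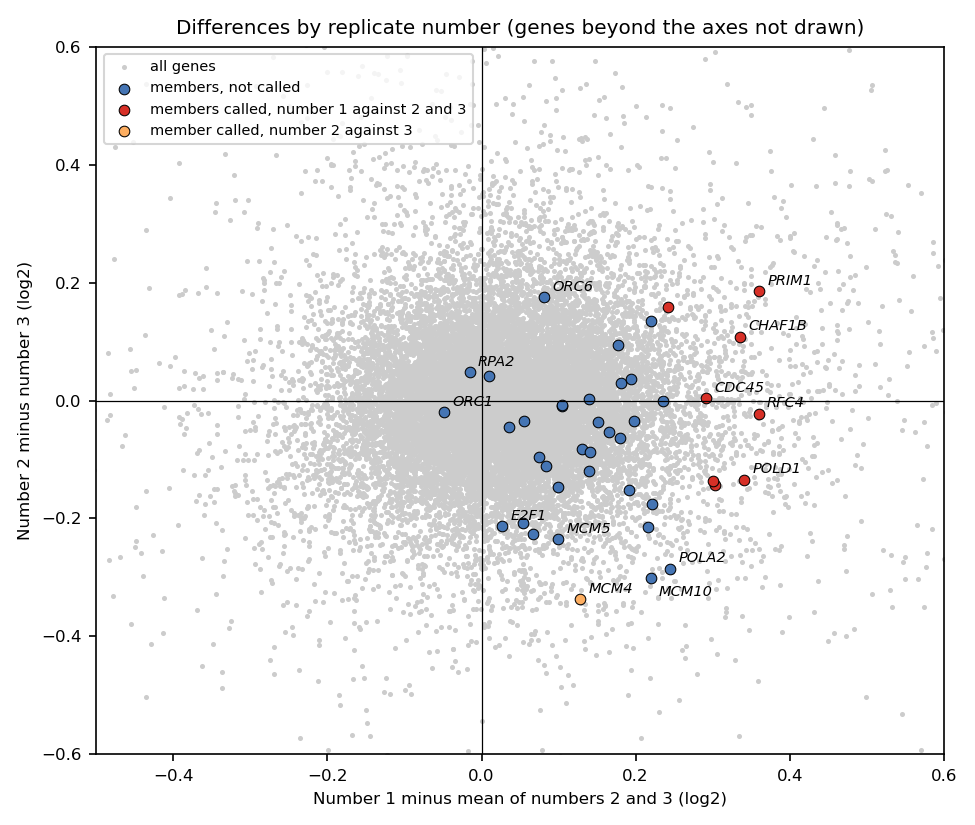
Difference of number 1 from numbers 2 and 3 (horizontal axis, log2) against the difference of number 2 from number 3 (vertical axis, log2) for all genes in grey and the 42 replication genes in colour. The 8 genes called on the horizontal axis lie at +0.24 to +0.36 and spread around 0 on the vertical axis, while MCM4, called on the vertical axis, lies at +0.13 and -0.34.

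Of the 10 origin licensing genes 0 passed between number 1 and the rest in limma's test (4.03% of all genes higher, 1.05% lower). At an unadjusted p under 0.05, 0 did so (14.2% and 5.44%), and the median was +0.099. Between numbers 2 and 3, 1 passed (0.936% of all genes higher, 0.799% lower) and 4 did so unadjusted (7.39% and 6.99%). The 10 genes include ORC1 and ORC6 of the origin recognition complex and the loaders CDC6 and CDT1. CDC6 measured 9.49, 9.53 and 9.43 in Control, 9.36, 9.45 and 9.33 in CA and 9.40, 9.30 and 9.40 in ICC on arrays 1, 2 and 3 of each group, and its difference was -0.11 ± 0.069 (SE) for CA and -0.12 for ICC against Control. All 3 ICC arrays lay below the 3 Control arrays, while CA overlapped with Control, and neither difference passed limma's test (adjusted p = 0.996 and 0.689). For CDT1 the values were 9.15, 9.34 and 9.23 in Control, 9.40, 8.96 and 9.25 in CA and 9.34, 9.27 and 9.12 in ICC, with no order by group and the lowest on CA array 2. ORC6 measured 10.12, 10.15 and 10.00 in Control, 10.20, 10.15 and 10.02 in CA and 10.18, 10.22 and 9.97 in ICC. On numbers 1 and 2 it was above number 3 in every group, and the difference of number 2 from number 3 was +0.18 ± 0.065 (adjusted p = 0.233 in limma's test), which did not pass. ORC1 was the lowest of the role on number 1, at -0.049, and MCM7 the highest, at +0.14.

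The 6 subunits of the MCM helicase ring, which unwinds DNA at the fork, were all lower on number 2 than on number 3 in the mean, and MCM4 passed the test. Its values were 10.46, 10.42 and 10.47 on number 1, 10.23, 10.09 and 10.15 on number 2 and 10.59, 10.49 and 10.40 on number 3, each in the order Control, CA and ICC. Every array of number 2 was below every other array. The difference of number 2 from number 3 was -0.34 ± 0.068, 1.26-fold lower, with an adjusted p of 0.0410 in limma's test. It lost the call in 8 of 9 fits that left out 1 array (all but that without Control array 1), with adjusted p-values of 0.0454 to 0.219 over the 9. The other 4 MCM4 probe sets gave -0.15, -0.22, -0.28 and -0.0044, and their mean with the chosen one gave -0.20 (adjusted p = 0.170 in limma's test).

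Of the other ring subunits none passed in any comparison. MCM2 measured 11.56, 11.57 and 11.46 on number 1, 11.43, 11.22 and 11.41 on number 2 and 11.54, 11.45 and 11.52 on number 3, again in the order Control, CA and ICC, and MCM5 9.92, 9.94 and 10.07 on number 1, 9.85, 9.55 and 9.88 on number 2 and 10.01, 10.03 and 9.94 on number 3. In each of them the 3 arrays of number 2 were the lowest of their group, and CA array 2 was lowest of all 9. MCM3 stood at 10.81, 10.77 and 10.89 on number 1, 10.74, 10.60 and 10.63 on number 2 and 10.69, 10.74 and 10.77 on number 3. MCM6 was at 11.54, 11.72 and 11.71 on number 1, 11.58, 11.32 and 11.53 on number 2 and 11.78, 11.77 and 11.57 on number 3, and MCM7 at 11.33, 11.45 and 11.59 on number 1, 11.33, 11.12 and 11.33 on number 2 and 11.38, 11.36 and 11.40 on number 3. Over MCM2 to MCM7 the difference of number 2 from number 3 ran from -0.34 to -0.082, below 0 in 6 of 6 under each scaling tried. For 4 of the 6 (MCM2, MCM4, MCM5 and MCM7) all number 2 arrays lay below those of number 3 (8.9% of all genes). Number 1 against numbers 2 and 3 gave +0.067 to +0.14. Against Control the probe sets chosen for the 6 subunits gave -0.098 to -0.027 with CA and -0.088 to +0.093 with ICC. Of the other MCM4 probe sets, that with a mean of 9.52 gave +0.16 with CA and +0.20 with ICC. The rest gave -0.069, -0.0010 and -0.0097 with CA and -0.12, +0.14 and +0.14 with ICC. Further probe sets of MCM5, MCM6 and MCM7 lay within the ranges of those chosen. Among the members of smallest p for ICC against CA was MCM7, at +0.13 ± 0.099, with an interval of -0.088 to +0.35 and an adjusted p of 1.00 in limma's test. It was +0.035 without CA array 2, +0.054 without ICC array 1 and +0.20 without CA array 1.

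The factors that turn the loaded ring into a running helicase were higher on number 1 in the mean, with a median of +0.22. At an unadjusted p under 0.05, 6 of 6 were higher (14.2% of all genes), and 2 after adjustment (4.03% of all genes). CDC45, which joins MCM and GINS in the active helicase, measured 9.98, 9.97 and 10.07 on number 1, 9.70, 9.69 and 9.76 on number 2 and 9.76, 9.77 and 9.61 on number 3 in the order Control, CA and ICC. All 3 number 1 arrays were above the other 6, with a mean difference of +0.29 ± 0.063 or 1.22-fold (adjusted p = 0.0288 in limma's test), but the call was lost in 7 of 9 fits without 1 array (all but those without Control array 3 or CA array 3). GINS4, a subunit of the GINS complex, also passed and differed by +0.30 ± 0.069 (adjusted p = 0.0333), the largest difference of this role, with the call lost in 7 of 9 fits without 1 array (all but those without Control array 2 or CA array 3). The other GINS4 probe sets, dimmer at means of 4.99, 5.03 and 4.30, gave -0.087, +0.015 and -0.085. GINS2, a partner of GINS4, was at +0.18, the smallest. MCM10, which acts when the helicase is switched on, measured 9.23, 9.32 and 9.16 on number 1, 9.00, 8.80 and 8.80 on number 2 and 9.27, 9.17 and 9.07 on number 3. Its number 2 arrays were the lowest in each group, -0.30 ± 0.073 from number 3 (adjusted p = 0.0729 in limma's test, not passed).

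Among the polymerases and primase 2 of 6 passed as higher on number 1 (4.03% of all genes). Unadjusted 4 did so (14.2% of all genes), and the median was +0.20. PRIM1, the catalytic subunit of primase, which makes the RNA primers, measured 9.81, 9.80 and 9.77 on number 1, 9.44, 9.58 and 9.54 on number 2 and 9.42, 9.39 and 9.20 on number 3 in the order Control, CA and ICC. It was 1.28-fold higher on number 1 (+0.36 ± 0.065, adjusted p = 0.0123 in limma's test), and its 3 number 2 arrays in turn lay above the 3 of number 3. POLD1, the catalytic subunit of polymerase delta, measured 9.50, 9.48 and 9.70 on number 1, 9.07, 9.16 and 9.23 on number 2 and 9.15, 9.30 and 9.41 on number 3. All 3 arrays of number 1 were above the others, with a mean difference of +0.34 ± 0.058 or 1.27-fold (adjusted p = 0.00893 in limma's test). POLA2, the accessory subunit of polymerase alpha, measured 9.50, 9.83 and 9.62 on number 1, 9.35, 9.09 and 9.35 on number 2 and 9.59, 9.56 and 9.50 on number 3, with number 2 lowest in every group (-0.29 ± 0.10 from number 3, adjusted p = 0.220 in limma's test, not passed). Without CA array 2 it was -0.15. PRIM1 and POLA2 belong to the same polymerase alpha-primase complex, and between numbers 2 and 3 their differences had opposite signs, though neither passed.

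The catalytic subunit of that complex, POLA1, had the smallest p of the 42 genes for coffee. It measured 8.70, 8.53 and 8.57 in Control, 8.53, 8.43 and 8.41 in CA and 8.48, 8.24 and 8.33 in ICC on arrays 1, 2 and 3. Each ICC array lay below the Control array of its number, and all 3 below the lowest Control array. The difference was -0.25 ± 0.083 for ICC against Control, with an interval of -0.43 to -0.064, an unadjusted p of 0.0130 and an adjusted p of 0.614 in limma's test. For CA against Control it was -0.14 ± 0.083 (adjusted p = 0.996), with CA overlapping with Control, and -0.090 without Control array 1. POLE, the catalytic subunit of polymerase epsilon, measured 8.84, 8.80 and 8.83 in Control, 8.91, 8.87 and 8.83 in CA and 9.08, 8.79 and 9.09 in ICC. Its ICC arrays 1 and 3 were the highest of the 9 while ICC array 2 was the lowest, and the difference was +0.16 ± 0.086 against Control (adjusted p = 0.668 in limma's test) and +0.12 ± 0.086 against CA (adjusted p = 1.00). Without ICC array 2 these were +0.26 and +0.22, and the difference from CA was +0.075 without ICC array 1 and +0.067 without ICC array 3.

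Of the 7 genes of the sliding clamp, its loaders and single-strand binding, 3 passed on number 1 (RFC4, RFC2 and DSCC1), and PCNA, the clamp, did not. The share of all genes higher there was 4.03%. RFC4, a subunit of replication factor C, measured 10.50, 10.55 and 10.58 on number 1, 10.13, 10.22 and 10.17 on number 2 and 10.26, 10.22 and 10.11 on number 3 in the order Control, CA and ICC. It was higher on all 3 arrays of number 1, with a mean difference of +0.36 ± 0.060 or 1.28-fold (adjusted p = 0.00833 in limma's test), and close to equal on numbers 2 and 3. RFC2 of the same loader and DSCC1, which belongs to an alternative clamp loader, also passed and are named for that, at +0.24 ± 0.056 (adjusted p = 0.0372) and +0.30 ± 0.068 (adjusted p = 0.0332) in limma's test. Without 1 array RFC2 lost the call in 8 of 9 fits (all but that without CA array 2) and DSCC1 in 7 of 9 (all but those without Control array 1 or Control array 2). The other RFC2 probe set gave +0.19, and the other DSCC1 probe set, dimmer at a mean of 5.84, gave -0.060. RFC3 and RFC5 were at +0.18 and +0.24, also with no overlap between number 1 and the rest, and did not pass. The lowest of the role, at -0.016, was RPA2, a subunit of the protein that coats single-stranded DNA. PCNA measured 12.37, 12.53 and 12.49 in Control, 12.63, 12.49 and 12.59 in CA and 12.74, 12.51 and 12.55 in ICC on arrays 1, 2 and 3. Its lowest array was Control 1 and its highest ICC 1, so the groups of number 1 spanned the whole range, and its difference by number was +0.055 ± 0.072 (adjusted p = 0.742 in limma's test).

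Of the 3 enzymes that process Okazaki fragments or repair DNA, 0 passed by number in limma's test. Unadjusted 1, FEN1, did so for number 1 (14.2% of all genes higher). FEN1, the flap endonuclease, was at +0.22 on number 1, the highest of the 3. UNG, which removes uracil from DNA, was at +0.035, the lowest. UNG was also among the 3 genes of smallest p for caffeic acid, with values of 9.83, 9.97 and 10.08 in Control, 10.16, 10.03 and 10.03 in CA and 10.21, 10.03 and 10.06 in ICC on arrays 1, 2 and 3. Control array 1 was the lowest and Control array 3 lay within the range of the treated arrays, and the difference was +0.12 ± 0.085 for CA (adjusted p = 1.00 in limma's test). It was +0.054 without Control array 1, +0.074 without CA array 1 and +0.18 without Control array 3. On the probe sets chosen, the 3 genes of nucleotide supply were at +0.17 to +0.19 on number 1. At an unadjusted p under 0.05, 3 of 3 were higher (14.2% of all genes), and 0 after adjustment (4.03% of all genes). The other RRM1 and TK1 probe sets gave +0.26 and +0.13. RRM2, the small subunit of ribonucleotide reductase, measured 12.50, 12.59 and 12.54 on number 1, 12.32, 12.41 and 12.38 on number 2 and 12.34, 12.31 and 12.34 on number 3 in the order Control, CA and ICC. Every number 1 array was above the other 6, at +0.19 ± 0.055 with an adjusted p of 0.0780 in limma's test. The other RRM2 probe set, at a mean of 12.38, gave +0.35 there. For number 2 against number 3 it gave -0.20, where the chosen one gave +0.037. For ICC against Control it gave -0.13, where the chosen one gave +0.030. The highest and lowest of this role were RRM2 and TK1, thymidine kinase.

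Among the transcription factors and the kinase regulator 0 of 4 passed by number in limma's test. At an unadjusted p under 0.05, 2 did so for number 1 (14.2% of all genes higher). For number 2 against number 3, 1 did so, E2F1 (6.99% of all genes lower). E2F1, an activator of G1/S transcription, measured 9.00, 9.05 and 9.15 on number 1, 8.88, 8.97 and 8.95 on number 2 and 9.14, 9.11 and 9.19 on number 3 in the order Control, CA and ICC. It was lower on number 2 than on number 3 in all 3 groups without overlap, at -0.21 ± 0.066 (adjusted p = 0.147 in limma's test), which did not pass, and was at +0.026 on number 1 against the rest. E2F2, another activator of the family, measured 7.59, 7.57 and 7.53 in Control, 7.68, 7.49 and 7.54 in CA and 7.88, 7.67 and 7.65 in ICC on arrays 1, 2 and 3. All 3 ICC arrays were above the 3 Control arrays, at +0.17 ± 0.082 with an interval of -0.0084 to +0.36 and an adjusted p of 0.648 in limma's test, and the difference from CA was +0.16 ± 0.082 (adjusted p = 1.00). Without ICC array 1 they were +0.10 and +0.092. The other E2F2 probe sets, at means of 5.52 and 6.62, gave +0.21 and -0.10 for ICC against Control. Against CA they gave +0.12 and -0.071. With POLA1 and CDC6, E2F2 made up the 3 of 42 genes whose ICC and Control arrays did not overlap, against 12% of all genes, and for CA against Control the count was 0 (7.86%) and for ICC against CA 0 (5.87%). CDC25A, the phosphatase that activates the kinases of G1/S, was the highest of the role on number 1 at +0.20.

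Of the histone supply genes 1 of 3 passed on number 1, against 4.03% of all genes higher there. CHAF1B, a subunit of the chromatin assembly factor that places histones behind the fork, had the smallest p of all 42 genes on number 1. It measured 8.37, 8.33 and 8.32 on number 1, 8.08, 8.02 and 8.08 on number 2 and 7.99, 7.90 and 7.96 on number 3 in the order Control, CA and ICC. The 3 number 1 arrays were close to each other and above all others, with a mean difference of +0.34 ± 0.054 or 1.26-fold (adjusted p = 0.00688 in limma's test). Its partner CHAF1A was at +0.19 and SLBP, which binds the stem-loop of histone mRNAs, at +0.10, and neither passed. Between fits without 1 array CHAF1B and RFC4 lost the call in 1 of 9 each (without CA array 1 and without ICC array 1), POLD1 in 2 of 9 (without Control array 1 or ICC array 1) and PRIM1 in 3 of 9 (without any 1 of the number 1 arrays).

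Other genes of the G1/S transition and replication, 67 measured of 68 listed, did not pass for the treatments either: 0 of 67 in each of the 3 comparisons in limma's test, with 5 at an unadjusted p under 0.05 for ICC against Control (7.73% of all genes), 5 for caffeic acid against Control (4.47%) and 2 between the treatments (2.69%). The smallest p-values for ICC against Control were those of CDKN1B (p27, an inhibitor of cyclin-dependent kinases) at +0.27 ± 0.070, E2F4 at +0.23 ± 0.065 and ATAD5, which takes part in unloading PCNA, at -0.33 ± 0.10, each with an adjusted p of 0.614 in limma's test. For CA against Control they were CCNE2 (cyclin E2) at +0.30, CDKN1B at +0.19 and CCNA2 (cyclin A2) at +0.24 (adjusted p = 0.996 for each). On number 1, 8 of 67 were higher (4.03% of all genes) and 1 lower (1.05% of all genes) at an adjusted p under 0.05, with a median of +0.13, beside +0.027 over all genes. SAMHD1, an enzyme that degrades deoxynucleotides, measured 11.13, 11.46 and 11.23 on number 1, 10.49, 10.77 and 10.67 on number 2 and 10.47, 10.47 and 10.38 on number 3 in the order Control, CA and ICC. It was 1.66-fold higher on number 1 (+0.73 ± 0.069, adjusted p = 0.000388 in limma's test), and its 6 probe sets gave +0.38 to +1.10. FBXO5, an inhibitor of the anaphase-promoting complex, at +0.39 ± 0.061 and CCND3 (cyclin D3) at +0.33 ± 0.063 were next.

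Between numbers 2 and 3, 1 of the 67 was higher and 1 lower, 1.49% each, which is near the 0.936% and 0.799% of all genes. CDKN1A (p21), an inhibitor of cyclin-dependent kinases that also binds PCNA, measured 9.86, 9.28 and 9.56 on number 1, 9.59, 10.06 and 9.40 on number 2 and 7.97, 7.99 and 8.65 on number 3 in the order Control, CA and ICC. It was low on number 3 in every group, with a difference of number 2 from number 3 of +1.48 ± 0.22 or 2.78-fold (adjusted p = 0.0193 in limma's test). MTBP, a partner of the replication-initiation factor TICRR, was 1.53-fold lower on number 2 (-0.62 ± 0.085, adjusted p = 0.0135 in limma's test), but its other 3 probe sets gave -0.33, -0.054 and +0.031. SKP2, the ubiquitin ligase subunit that targets p27, was at -0.34 ± 0.090 (adjusted p = 0.0941) and did not pass. Of 31 genes of G2 and mitosis, listed for comparison, 31 were above 0 on number 1 (60.2% of all genes) and 8 passed (4.03% of all genes higher), with a median of +0.20, beside +0.027 over all genes. NDC80 at +0.46 ± 0.060, AURKB at +0.44 ± 0.060 and UBE2C at +0.36 ± 0.062 had the smallest p-values. For number 2 against number 3, 0 of 31 passed in limma's test, against 0.936% of all genes higher and 0.799% lower. At an unadjusted p under 0.05, 3 of 31 were lower (6.99% of all genes). Of the 31, 27 were below 0, beside 10126 of all 19775 genes.

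**Figure D5:**
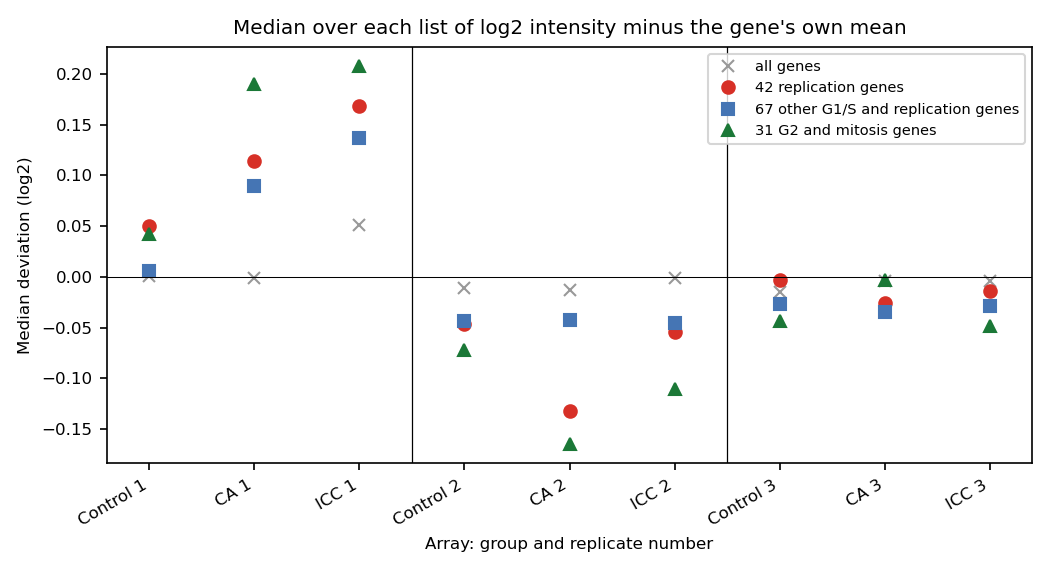
Median over a gene list of the log2 intensity minus each gene's own mean, on each of the 9 arrays in order of replicate number, for all 19775 genes, the 42 replication genes, 67 other G1/S and replication genes and 31 genes of G2 and mitosis. On number 1 the 42 genes lie at +0.050 in Control, +0.11 in CA and +0.17 in ICC, and on CA array 2 they are lowest at -0.13.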

How the data were processed

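Expression was measured on 9 arrays, 3 per group. The deposited values are linear intensity, which came from the authors' RMA normalization, a step known per the submitters' processing notes. GeneSpring GX is named in the design text of the series. Software versions were not given in the sources used here. Their log2 was taken. Of 54675 probe sets, 62 were controls, 41091 had 1 gene symbol in GEO's platform annotation, 1801 several and 11721 none; 0 symbols needed an update. Each of 19775 genes took its probe set of highest mean log2.

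limma 3.58.1 in R 4.3.3 (lmFit, eBayes) fitted the 3 groups over 9 arrays, and, for the replicate numbers, number plus group. P-values were adjusted by Benjamini-Hochberg over all genes, with 0.05 as the threshold; errors are SE of this fit. An exact permutation test of 3 arrays against 3 cannot go below p = 0.1. The fits were also run on simulated data with noise drawn independently for each array. That simulation leaves out the likeness of same-numbered arrays, so it cannot show how the fits behave under it. Same-numbered arrays deviated together (correlations of 0.327 to 0.518 in 9 of 9 pairs), so by the rule used here the labels' numbers pair the arrays, and a fit with the number as a block was added. The correlation of deviations is a hint from the data, and the labels do not say what a number marks.

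The 42 members, their roles, the other lists and the comparisons by number were chosen with earlier results of these data known. Array values are given for MCM2 to MCM7, PCNA, CDC6, CDT1, E2F1 and RRM2, for the 3 genes of smallest p per treatment comparison and for the 5 per comparison by number. Of other members the highest and lowest of a role are named, and of other lists up to 3 genes per comparison. RFC2, DSCC1, RFC3, RFC5 and CHAF1A, and the array values of SAMHD1 and CDKN1A, were given after their values were seen. So were the block results of single genes and the values of further probe sets. Alternatives were other scalings, probe set choices, filters and fits without 1 array.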

Additional observations from a re-analysis of the deposited data

How the results depend on the processing

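No member passed for either treatment under any setting tried: the replicate block (0 members in each comparison), centred arrays, renewed quantile normalization, averaging of all probe sets per gene, leaving out probe sets that can cross-hybridise or dim genes, only the groups compared, or leaving out any 1 array. Over all genes the replicate block gave 3 calls for CA against Control and 1 for ICC against CA, and the block with centred arrays, chosen after seeing the data, gave 5 and 1, against 0 without it. It changed no other call. The members called on number 1 were 8, and 6 to 12 under other settings; leaving out 1 array gave 1 to 6, with 337 to 939 calls over all genes in place of 1003. For number 2 against number 3 the all-gene calls were 343, or 214 without the group term, 706 without dim genes and 6 to 360 without 1 array (6 without CA array 3 and 8 without Control array 3). The members called there were 1, or 0 with the mean of probe sets, 2 without dim genes and 0 to 1 without 1 array. The member median without 1 array ranged from -0.046 to 0.086 for ICC against CA and from -0.11 to -0.034 for number 2 against number 3. No result changed direction while called. Leaving out an array also leaves fewer degrees of freedom, and otherwise the cause was not tested. The probe sets of 18 of the 42 members carry a name ending that marks possible cross-hybridisation. Without such probe sets 10 of these members drop out, 8 take another, dimmer probe set, and 6 of the 32 left passed on number 1. The 3 arrays per group limit the precision, and differences within the intervals given remain possible. These are intervals of single genes and not limits of detection after adjustment. For ICC against Control, POLA1 had an interval of -0.43 to -0.064 and still an adjusted p of 0.614 in limma's test.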

Other observations

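Members with and without the E2F-type promoter motif TTTNGCGC were set side by side, as a description with no test. On number 1 against numbers 2 and 3 the 16 members with the motif had a median difference of +0.12, from +0.0092 to +0.24, and 0 of them were called, with 6 at an unadjusted p under 0.05 in limma's test. The 20 listed members without it had a median of +0.19, from -0.049 to +0.36, with 6 called and 15 unadjusted. Of all genes 4.03% were called higher, and 14.2% were higher unadjusted. Between numbers 2 and 3 the members with the motif had a median of -0.089, with 13 of 16 below 0, and those without it -0.021, with 12 of 20 below 0. Most licensing genes fall in the first set and most helicase-activation genes in the second, so motif and role overlap.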
